A study of Mus musculus and Rattus norvegicus with 14 samples.

Results

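Hearts of mice treated with SQ-3 were compared with hearts of the Model group by RNA sequencing. The comparison uses the 6 libraries that the labels place in these groups, 3 of SQ-3 and 3 of Model, of 14 samples in the series, and it covers every gene that could be tested. Sham hearts and hearts of mice treated with LQ-40, with 3 libraries each, entered the same fit and serve as reference values. The remaining samples are rat cell cultures and were not analysed here. The labels describe each mouse sample as heart tissue with Sham, Model, LQ-40 or SQ-3 as its treatment, and nothing further sets the groups apart. From the series' design text, the study concerns myocardial fibrosis, the build-up of connective tissue matrix in heart muscle, and asks whether LQ-40 and SQ-3, which it treats as structurally similar, counter it. The labels leave out strain, sex, age, dose, route, duration, the hour of collection and the procedure behind the Model group, and they do not state that the SQ-3 hearts went through that procedure. Whether each library stands for its own animal is not stated either, so the p-values below measure only the spread between libraries, which may be technical. Both compounds are known here only by code names, with no structure.

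3 systems recur in the results. Heart cells keep daily time with a transcriptional loop in which BMAL1, the product of Arntl, pairs with CLOCK or NPAS2 and switches on the PER, CRY and REV-ERB repressors together with the output factors DBP, TEF and HLF, while the repressors in turn hold the activators down. Secreted and membrane proteins fold in the endoplasmic reticulum, whose chaperones are induced through factors such as XBP1 and ATF6 when unfolded protein accumulates, a programme called the unfolded protein response. Fibrosis is the work of fibroblasts, which lay down collagens, elastin, fibronectin and the enzymes that process them.

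SQ-3 hearts differed from Model hearts in 45 of 13000 tested genes (0.346%), 10 of them higher in SQ-3 (0.0769%) and 35 lower (0.269%), at a limma adjusted p under 0.05. Of the 10 genes that rose, 6 are clock repressors or output factors, and the 5 largest fitted rises were those of Dbp (7.43-fold), the muscle gene Tcap (4.28-fold), Ciart (4.18-fold), Hlf (3.32-fold) and Tef (2.99-fold). The genes that fell included the clock activators Arntl, Npas2 and Clock, 8 genes of protein folding in the endoplasmic reticulum such as Hspa5 (2.37-fold lower) and Sdf2l1 (3.35-fold lower), 3 cytosolic heat shock chaperones, and the early response factors Nr4a3 and Fosl2. No collagen gene passed the test, although all 19 had a lower fitted level in SQ-3, against 51.7% of all genes. All folds and log2 changes are of scaled FPKM + 1, where FPKM is the number of fragments scaled to gene length and to library size, and the added 1 understates the change of genes with low values. All levels below are scaled FPKM, given in the order of libraries 1, 2 and 3 of a group.

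All 45 genes are protein coding, and in each of them the 3 SQ-3 libraries lay entirely on one side of the 3 Model libraries. Over all tested genes, the libraries separated in this way in 1571 genes with SQ-3 above (12.1%) and in 1862 with SQ-3 below (14.3%), so separation alone is common in these data. At an unadjusted p under 0.05, 767 genes were higher (5.9%) and 1080 lower (8.31%), and the median log2 change over all 13000 genes was -0.01, with 51.7% of genes below 0 and 48.3% above. 26 of the 45 changed at least 2-fold, 7 upward and 19 downward. The deposited annotation marks 14 of the 45 as transcription factors (31.1%), 4 higher and 10 lower, against 757 of all tested genes (5.82%). On whole reads recovered from the FPKM values, limma-voom called 10 genes higher (0.0769%) and 30 lower (0.231%). 10 of the 45 kept their call when any of the 6 libraries was left out and in all other settings that tested them: Dbp, Tef, Per3, Nr1d2, Arntl, Nfil3, Nr4a3, Hspa5, Hyou1 and Hsph1. A stricter filter removed some genes, such as Arntl and Nr4a3, which were judged on the remaining settings.

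**Figure D1:**
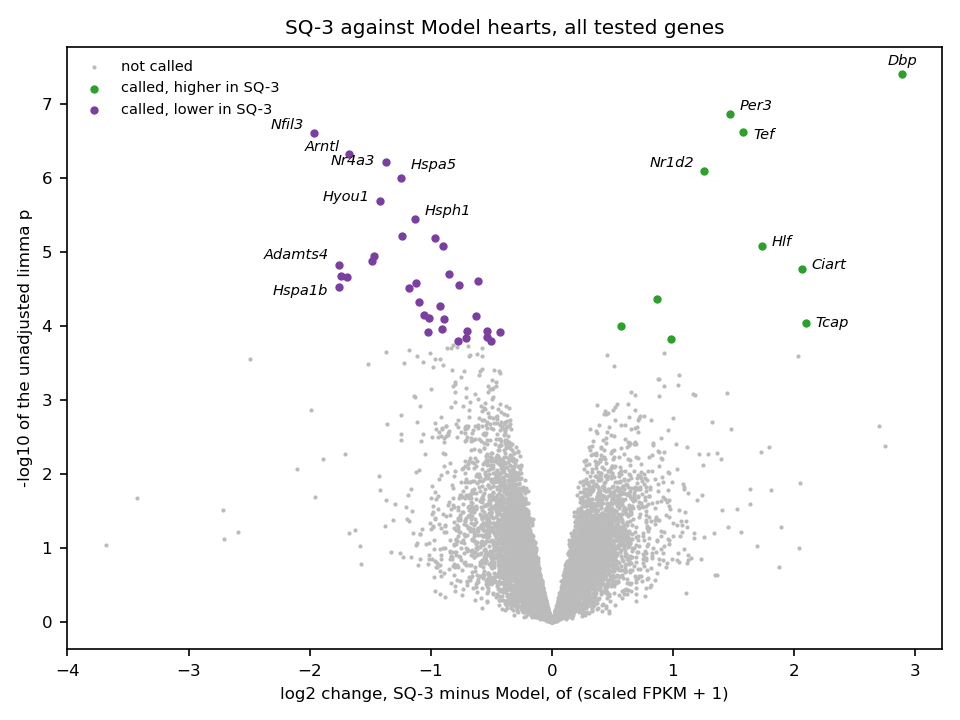
Log2 change of SQ-3 against Model (x axis, of scaled FPKM + 1) and -log10 of the unadjusted limma p (y axis) for 13000 genes, each a point. Green points are the 10 genes called higher in SQ-3, with Dbp at 2.89 farthest to the right, and purple points the 35 called lower.

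Depth was even, from 13085370 to 16698987 reads recovered per library. In a gene of 1 kb a read was worth 0.0566 to 0.0805 FPKM, which did not follow the recovered reads alone. The library size implied by the deposited FPKM was 0.963 (SQ-3 3) to 1.12 (Model 1) times the recovered reads in these 2 groups. It was 0.828 times in Sham 1 and 1.16 times in LQ-40 3, and the reason was not tested. Mitochondrially encoded transcripts took 10.8%, 15.3% and 14.2% of reads in Model and 15.2%, 15.6% and 20.1% in SQ-3 (13.4% ± 2.37 against 17.0% ± 2.68, SD, n = 3 each, exact two-sided permutation p = 0.2, where 0.1 is the smallest that 3 against 3 can give). The first principal component of all tested genes (53.42% of variance) placed Sham from -52.5 to -43.7, Model from 26.3 to 36.2, SQ-3 libraries 1 and 3 at 0.68 and 0.23 and SQ-3 library 2 at 17.7. SQ-3 library 2 thus lay nearest to Model in the leading axis of variation. Markers of heart muscle were abundant in all 6 libraries, with 25 contractile genes summing to 13300.0 to 15840.0 in Model and 17740.0 to 21450.0 in SQ-3, ranges that do not overlap. Of 9 lung and thymus markers, 8 were under 1 FPKM in all 6 libraries, and 2 of these, Sftpa1 and Cldn18, had no read. Of 13 skeletal muscle markers, 5 were tested, and 4 were under 1 FPKM in all 6 (Myh2, Myh4, Actn3 and Tnnc2, the last with no read), with sums over the list of 1227 to 1807 in Model and 1572 to 2344 in SQ-3.

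Among clock repressors and output factors, 6 of 17 tested genes were called higher in SQ-3 (0.0769% of all genes) and none lower (0.269%). The list median was 0.66 against -0.01 over all genes, with 15 members above 0 and 2 below. At an unadjusted p under 0.05, 11 were higher (5.9% of all genes). In 10 the SQ-3 libraries lay above the Model libraries (12.1% of all genes). Dbp (chr7:45705088-45710203, mm10), a circadian transcription factor that drives daily expression of metabolic genes, stood at 3.77, 6.1 and 2.54 in Model and at 39.6, 32.3 and 35.5 in SQ-3. The groups were far apart, with the lowest SQ-3 library several times above the highest Model library, and the log2 change was 2.89 (SE 0.21, limma adjusted p = 0.00051). Dbp overlaps Sphk2, and whether the counting used strand is not stated, so some reads may belong to the neighbour. Tef (chr15:81802421-81826863), a paralogue of Dbp that binds the same D-box sequence, measured 6.92, 8.05 and 6.74 in Model and 25.9, 24.8 and 20.5 in SQ-3, a log2 change of 1.58 (SE 0.14, adjusted p = 0.000794). Hlf (chr11:90336536-90390895), the third member of this PAR bZIP family, went from 0.705, 1.93 and 0.78 to 6.95, 4.69 and 6.22, with a log2 change of 1.73 (adjusted p = 0.00764). In each of the 3 paralogues the lowest SQ-3 library was more than 2-fold above the highest Model library. The Hlf call was lost without Model 3 and SQ-3 1 (adjusted p 0.00295 to 0.0548 over the 6 libraries left out in turn).

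Repressors of the loop followed the same direction. Per3 (chr4:151003652-151044665), a period protein, stood at 0.986, 1.32 and 0.732 in Model and 4.74, 4.79 and 4.12 in SQ-3 (log2 change 1.47, SE 0.12, adjusted p = 0.000794). It overlaps Camta1. Nr1d2 (chr14:18204054-18239127), which encodes the nuclear receptor REV-ERB-beta, a repressor of Arntl, stood at 11.9, 14.2 and 10.9 in Model and 31.2, 31.8 and 29.1 in SQ-3 (log2 change 1.26, adjusted p = 0.00146). Ciart (chr3:95878503-95882251), which represses the BMAL1 and CLOCK pair, was nearly silent in Model at 0.386, 1.07 and 0.155 and reached 4.52, 6.18 and 5.09 in SQ-3 (log2 change 2.06, adjusted p = 0.0122). The Model libraries of these 3 genes varied among themselves by more than the SQ-3 libraries in relative terms, and no SQ-3 library came near them. The Ciart call was lost without Model 1, Model 3, SQ-3 1, SQ-3 2 and SQ-3 3 (adjusted p 0.0142 to 0.0696).

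The other repressors of the list did not pass. Cry2, a cryptochrome, stood at 3.95, 4.002 and 4.05 in Model and 6.95, 5.03 and 5.86 in SQ-3 without overlap (log2 change 0.46, adjusted p = 0.139). Nr1d1, which encodes REV-ERB-alpha, measured 32.4, 31.9 and 26.8 against 57.3, 35.7 and 49.1 (log2 change 0.60, adjusted p = 0.32). Per2 measured 1.04, 2.66 and 1.97 against 3.89, 4.43 and 2.31, with groups that overlap (adjusted p = 0.286). Per1, a period gene that also responds to glucocorticoids, overlapped, at 10.7, 17.1 and 20.1 in Model and 12.96, 22.4 and 13.4 in SQ-3. Its log2 change was 0.02 (95% interval -0.50 to 0.54), and the sign turned with limma-voom (-0.04). The limma-voom fit used no scale factors, and its median over all genes was -0.07, against -0.01 in the main fit. Tsc22d3, another glucocorticoid-responsive gene on the list, had a log2 change of -0.23 (adjusted p = 0.679). Members of the list therefore did not all pass, and those with the largest changes were output factors and the PER3, REV-ERB-beta and CIART repressors.

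The activating side of the clock gave lower levels in SQ-3. 4 of 6 tested genes in the list of activators and Nfil3 were called lower (0.269% of all genes) and none higher (0.0769%), with a median of -1.14. Arntl (chr7:113207465-113314126) stood at 4.69, 3.42 and 5.75 in Model and at 0.833, 0.584 and 0.807 in SQ-3, so that every SQ-3 library was under 1 FPKM and every Model library above 3 (log2 change -1.67, SE 0.16, adjusted p = 0.00123). Npas2 (chr1:39193731-39363236), an alternative partner of BMAL1, measured 4.76, 1.87 and 3.51 in Model and 0.288, 0.143 and 0.51 in SQ-3 (log2 change -1.69, adjusted p = 0.0135). Clock (chr5:76209868-76304792) measured 7.16, 7.17 and 7.27 in Model, a narrow spread, and 4.35, 3.93 and 4.85 in SQ-3 (log2 change -0.61, adjusted p = 0.0146). The fitted change of Clock was smaller than those of Arntl and Npas2. Nfil3 (chr13:52967209-52981073), a repressor that competes with DBP, TEF and HLF for D-box sites, measured 12.9, 16.7 and 18.8 in Model and 2.85, 3.1 and 4.2 in SQ-3 (log2 change -1.96, SE 0.17, adjusted p = 0.000794). Rora, which encodes an activator of Arntl, did not differ beyond its spread, at 3.88, 4.16 and 5.11 in Model and 3.65, 4.57 and 3.7 in SQ-3 (adjusted p = 0.766). The Npas2 call was lost without Model 1, Model 3, SQ-3 1 and SQ-3 2 and that of Clock without Model 1, Model 2, Model 3, SQ-3 1 and SQ-3 2 (adjusted p 0.0042 to 0.0955 and 0.0363 to 0.0967), and both were lost when only SQ-3 and Model were fitted (0.0591 and 0.0509). Clock overlaps the pseudogene Ube2n-ps1.

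Set beside Sham hearts, which share the fit, the SQ-3 means of the called clock genes lay nearer to Sham than to Model. Dbp stood at 36.1, 41.5 and 43.01 in Sham, and its SQ-3 minus Sham log2 change was -0.17 (95% interval -0.64 to 0.31), beside a Model minus Sham change of -3.06. Arntl stood at 0.145, 0.207 and 0.365 in Sham, with an SQ-3 minus Sham change of 0.49 (0.14 to 0.84, adjusted p = 0.0857) beside a Model minus Sham change of 2.16. Nfil3 stood at 5.57, 3.96 and 4.57 in Sham, with corresponding changes of -0.38 (-0.77 to 0.00) and 1.58. Between SQ-3 and Sham, where 632 of all genes were called higher (4.86%) and 236 lower (1.82%), the adjusted p of the 10 called clock genes ran from 0.0501 (Clock) to 0.884 (Npas2). These comparisons share the SQ-3 or the Model libraries with the main one and are given only side by side. The hour at which hearts were taken is not given for any group. For these clock genes, and for every other gene described here, the treatment and the hour of collection cannot be told apart.

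**Figure D2:**
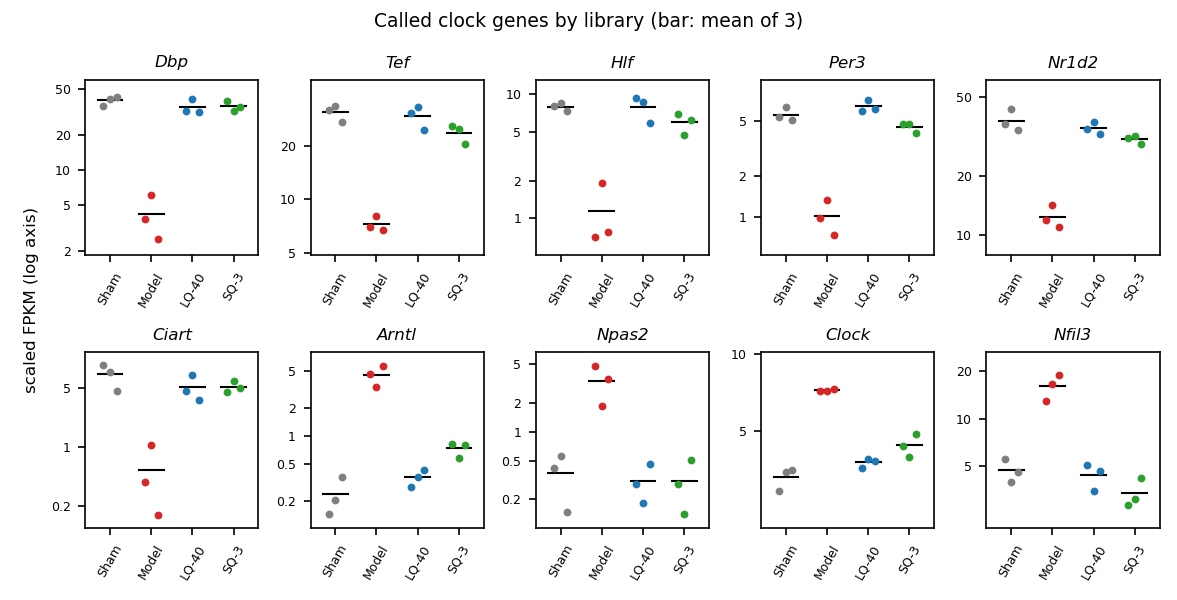
Scaled FPKM (log axis) of the 10 clock genes called between SQ-3 and Model in each of the 12 libraries, by group, with each library a point and the mean of 3 a bar. For Dbp, Model ranges from 2.54 to 6.1 and SQ-3 from 32.3 to 39.6, whereas Arntl and Nfil3 lie highest in Model.

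Promoter sequence is shown for clock genes because the called genes include the factors whose binding letters are known. RefSeq promoters (GRCm38.p6, the same assembly as mm10) were found for 35 of the 45 called genes, and the 250 bases before the RefSeq start were searched on both strands. The E-box CACGTG, bound by BMAL1 with CLOCK or NPAS2, occurred in 2 of 6 called repressor and output promoters (Ciart with 3 matches, Tef with 1), in none of the 4 called activator and Nfil3 promoters, and in 6.02% of all 32851 promoters. The D-box TTATGTAA, bound by DBP, TEF, HLF and NFIL3, occurred in 1 of the 6 (Per3, 2 matches) and in 0.819% of all promoters. The letters TAGGTCA, bound by ROR and REV-ERB receptors, occurred in 1 of the 4 activator and Nfil3 promoters (Nfil3) and in 2.23% of all. The E-box and the D-box do not overlap in these windows. A match is a description of the letters and not a bound site, and these genes and motifs were chosen after the expression values had been seen. Below, capitals mark the matched letters on either strand. The Per3 window is chr4:151044666-151044915 (minus strand), the 250 bases upstream of the start. For Ciart (chr3:95882252-95882478, minus strand), 227 of the 250 bases searched are shown, since the others lie within the deposited gene span; they hold all 3 matches. For Tef (chr15:81802534-81802563, plus strand) and Nfil3 (chr13:52981040-52981069, minus strand) only 30 bases with the match are shown. These bases lie within the deposited gene spans. Both matches are thus upstream of the RefSeq start but downstream of the deposited start, and they are counted above by the RefSeq start.
Ciart: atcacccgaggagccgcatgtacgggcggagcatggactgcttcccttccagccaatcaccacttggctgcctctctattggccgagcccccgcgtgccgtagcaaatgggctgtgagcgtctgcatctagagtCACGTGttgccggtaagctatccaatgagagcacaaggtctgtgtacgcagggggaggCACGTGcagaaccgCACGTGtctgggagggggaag
Per3: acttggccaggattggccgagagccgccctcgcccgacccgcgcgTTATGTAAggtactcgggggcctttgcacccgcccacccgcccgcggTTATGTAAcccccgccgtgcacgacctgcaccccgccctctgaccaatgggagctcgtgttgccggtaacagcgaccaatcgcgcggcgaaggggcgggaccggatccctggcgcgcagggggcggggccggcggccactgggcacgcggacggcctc
Tef: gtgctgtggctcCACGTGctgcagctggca
Nfil3: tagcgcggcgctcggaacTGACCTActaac

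Genes of protein folding in the endoplasmic reticulum were the largest group among the genes that fell. Of 25 tested members, 8 were called lower (0.269% of all genes) and none higher (0.0769%). The list median was -0.67 against -0.01 over all genes. 19 of the 25 were lower at an unadjusted p under 0.05 (8.31% of all genes). In 19 the SQ-3 libraries lay below the Model libraries (14.3% of all genes). Hspa5 (chr2:34771970-34777547), which encodes BiP, the main chaperone of this compartment, stood at 237, 233 and 223 in Model and 89.5, 103 and 98.5 in SQ-3. Both groups were tight and clearly separated, with a log2 change of -1.25 (SE 0.13, adjusted p = 0.0016). Hyou1 (chr9:44379490-44392369), a large HSP70-type chaperone and exchange factor for BiP, stood at 22.2, 18.99 and 16.9 in Model and 7.33, 5.67 and 6.76 in SQ-3 (log2 change -1.42, SE 0.16, adjusted p = 0.00295). Sdf2l1 (chr16:17130138-17132383), a subunit of a BiP co-chaperone complex, measured 25.8, 31.9 and 20.2 in Model against 7.13, 6.49 and 7.18 in SQ-3, the largest fitted change of the list (log2 -1.74, adjusted p = 0.0135). In all 3 genes the SQ-3 libraries lay within a narrow band well below the Model libraries.

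The other called members of the folding list cover cofactors, a transcription factor and degradation. Manf (chr9:106838312-106891979), a secreted protein that stabilises BiP bound to its clients, stood at 37, 34.96 and 32.9 in Model and 9.55, 17.3 and 9.91 in SQ-3, where library 2 was higher than the others (log2 change -1.49, adjusted p = 0.0107). Manf overlaps Rbm15b and Dcaf1. Creld2 (chr15:88819646-88826683), a disulfide isomerase-like protein, had 41.8, 36 and 31.8 in Model and 11.2, 15.7 and 11.2 in SQ-3, again with library 2 highest (log2 change -1.46, adjusted p = 0.00964). Dnajc3 (chr14:118937976-118981697), a BiP co-chaperone that also restrains the kinase PERK, had 36.2, 35.8 and 33.7 against 16.2, 21.2 and 17.05 (log2 change -0.93, adjusted p = 0.0237). Xbp1 (chr11:5520659-5525893), the transcription factor activated by IRE1 splicing, had a nearly constant level in Model, 43.2, 44.4 and 44.3, and 22.4, 23.6 and 20.4 in SQ-3 (log2 change -0.96, adjusted p = 0.00691). The gene-level values do not separate the spliced and unspliced Xbp1 forms. Edem1 (chr6:108828641-108859356), which sends misfolded glycoproteins to degradation, had 14.03, 12.7 and 12.3 against 6.34, 6.93 and 6.18 (log2 change -0.90, adjusted p = 0.0392).

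Several abundant folding genes lay lower in SQ-3 in every library without passing the test. Calr, a lectin chaperone that binds calcium, measured 210.3, 218 and 188 in Model and 109.9, 139.7 and 98.04 in SQ-3 (log2 change -0.83, adjusted p = 0.129). Pdia4, a disulfide isomerase, measured 54.5, 57.7 and 47.3 and 27.8, 27.8 and 23.7 (log2 change -0.98, adjusted p = 0.0664) and passed when only SQ-3 and Model were fitted (0.0312). Hsp90b1 and Pdia3 had log2 changes of -0.67 and -0.63 (adjusted p = 0.168 and 0.281). Of the 8 called members, Hspa5 and Hyou1 kept their call whichever library was left out, and Xbp1 lost it without Model 3 (adjusted p = 0.0504). The calls of Sdf2l1, Manf, Creld2, Dnajc3 and Edem1 were lost without Model 1, Model 2, SQ-3 1, SQ-3 2 and SQ-3 3 (Sdf2l1), Model 1, Model 3, SQ-3 1 and SQ-3 3 (Manf), Model 1, SQ-3 1 and SQ-3 3 (Creld2), Model 1, Model 2, Model 3, SQ-3 1 and SQ-3 3 (Dnajc3) and any of the 6 (Edem1), with adjusted p up to 0.0707, 0.0657, 0.0642, 0.139 and 0.173. Limma-voom did not call Dnajc3 (0.0699) or Edem1 (0.0876), the unfiltered fit did not call Edem1 (0.0935), and the fit of the 2 groups alone did not call Manf (0.0513).

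Set beside Sham, Hspa5 was at 131, 135 and 116 in Sham, between the other groups: Model minus Sham was 0.86 (adjusted p = 0.00111) and SQ-3 minus Sham -0.39 (95% interval -0.67 to -0.11, adjusted p = 0.0901). Hyou1 was at 5.27, 7.35 and 7.91 in Sham, with changes of 1.39 for Model and -0.04 for SQ-3 (-0.38 to 0.31). Xbp1 was at 19.02, 18.5 and 20.8 in Sham, with 1.14 for Model and 0.18 for SQ-3 (-0.09 to 0.44). Model was above Sham in all 3 genes, and the SQ-3 minus Sham interval included 0 for Hyou1 and Xbp1 and lay below 0 for Hspa5.

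The folding promoters are shown for the endoplasmic reticulum stress element, the letters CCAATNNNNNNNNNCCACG, which ATF6 and XBP1 with NF-Y are known to use. They occurred in 3 of the 6 called folding genes with a RefSeq promoter (Hspa5, Dnajc3 and Creld2, 1 match each) and in 37 of all 32851 promoters (0.113%). The short parts alone are common, CCAAT in 33.8% and CCACG in 28.3% of all promoters. Only these short parts had been planned for folding genes. The genes and the full letters were chosen after the expression values had been seen, so the counts are no test. A match is a description of the letters and not a bound site. Capitals mark the match, on the minus strand in Creld2. The Dnajc3 window is chr14:118937682-118937931 (plus strand), with the match starting 105 bases before the RefSeq start, and the Creld2 window is chr15:88819396-88819645 (plus strand), 126 bases before it. For Hspa5 (chr2:34772020-34772049, plus strand), 30 bases are shown because the GENCODE model begins upstream of the RefSeq start. The Hspa5 match therefore lies within the deposited gene span.
Hspa5: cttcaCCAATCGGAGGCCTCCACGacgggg
Dnajc3: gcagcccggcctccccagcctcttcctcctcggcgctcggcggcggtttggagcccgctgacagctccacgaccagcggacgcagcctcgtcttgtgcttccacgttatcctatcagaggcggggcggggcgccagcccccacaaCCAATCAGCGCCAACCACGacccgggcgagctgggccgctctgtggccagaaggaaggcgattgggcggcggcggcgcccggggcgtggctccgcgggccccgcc
Creld2: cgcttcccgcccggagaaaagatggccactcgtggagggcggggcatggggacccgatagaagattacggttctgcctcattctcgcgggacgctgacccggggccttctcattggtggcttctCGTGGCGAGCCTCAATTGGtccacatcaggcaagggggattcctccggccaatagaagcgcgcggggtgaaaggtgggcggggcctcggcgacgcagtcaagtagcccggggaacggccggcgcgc

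**Figure D3:**
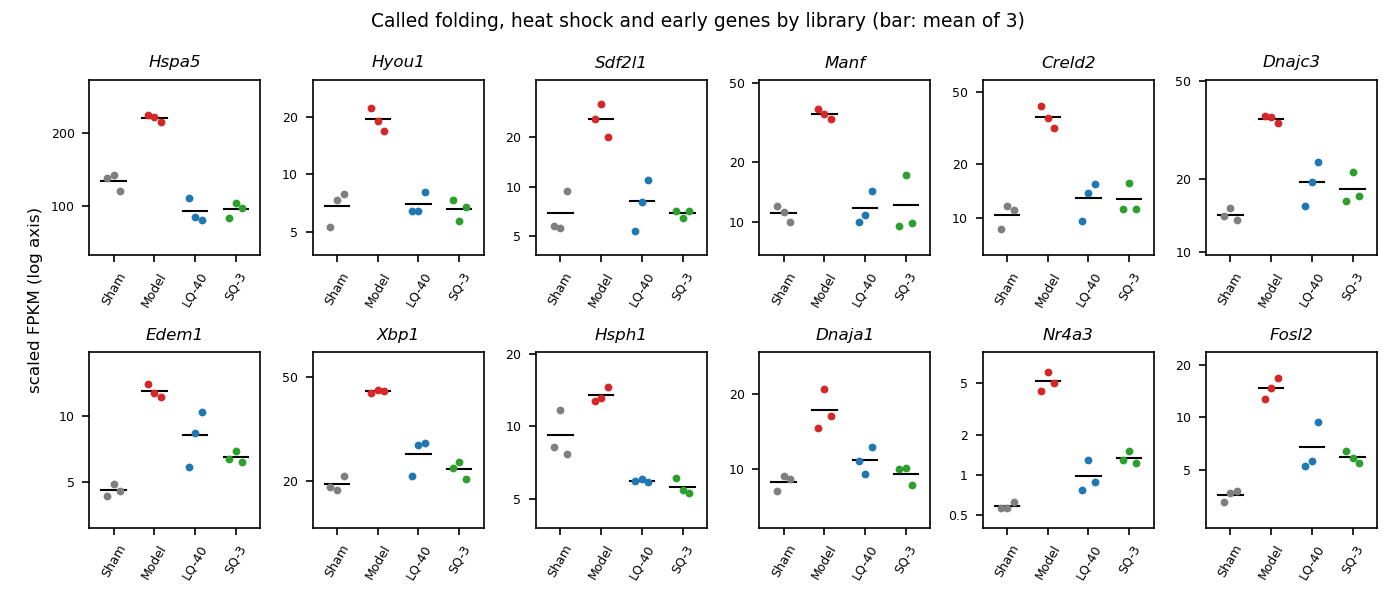
Scaled FPKM (log axis) by group and library for 12 called genes of endoplasmic reticulum folding, cytosolic heat shock and early response, each library a point and the mean of 3 a bar. Model libraries lie highest in all 12 panels, for example at 223 to 237 for Hspa5 against 89.5 to 103 in SQ-3.

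In the cytosol, 3 of 21 tested heat shock genes were called lower (0.269% of all genes) and none higher (0.0769%), with a list median of -0.29. Fitted changes were below 0 in 17 and above 0 in 4. At an unadjusted p under 0.05, 11 were lower, against 8.31% of all genes. In 11 the SQ-3 libraries lay below the Model libraries (14.3% of all genes), and in 3 above them (12.1%). Hsph1 (chr5:149614287-149636376), an HSP110 exchange factor for HSP70, stood at 12.8, 13.1 and 14.5 in Model and 6.08, 5.42 and 5.29 in SQ-3 (log2 change -1.13, SE 0.13, adjusted p = 0.00464). It was also lower in SQ-3 than in Sham, where it stood at 8.23, 11.7 and 7.64 (log2 change -0.61, adjusted p = 0.0257). Hspa1b (chr17:34956436-34959238), inducible HSP70, stood at 3.98, 9.48 and 5.12 in Model and 1.19, 1.14 and 0.759 in SQ-3 (log2 change -1.76, adjusted p = 0.0153). Hspa1a is a near-identical copy, reads can be split between the copies by the counting, and Hspa1a itself was below the filter at 0.901, 2.08 and 0.671 in Model and 0.169, 0.289 and 0.452 in SQ-3. Dnaja1 (chr4:40722150-40737149), an HSP40 co-chaperone, stood at 14.6, 21.02 and 16.3 in Model and 10.03, 10.1 and 8.58 in SQ-3 (log2 change -0.78, adjusted p = 0.0465) and overlaps Smu1. The Hspa1b call was lost without Model 3, SQ-3 1, SQ-3 2 and SQ-3 3 (adjusted p 0.0191 to 0.0971), and the Dnaja1 call whichever of the 6 was left out (0.0665 to 0.223), with limma-voom (0.0753) and without the filter (0.0936); the fit of the 2 groups alone ended both (0.0582 and 0.0821).

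Among uncalled chaperones, Hsp90aa1, the inducible cytosolic HSP90, stood at 89.5, 91.5 and 99.7 in Model and 48.9, 59.5 and 41.9 in SQ-3 (log2 change -0.90, adjusted p = 0.0627). Hspa8, the constitutive HSP70, stood at 198, 221 and 199 and 155, 122 and 144 (adjusted p = 0.158). Cryab, the small heat shock protein abundant in heart muscle, had the opposite sign, at 383, 381 and 439.9 in Model and 468, 493 and 452 in SQ-3 (log2 change 0.23, adjusted p = 0.55). Ptges3 (chr10:128058954-128077272), the HSP90 co-chaperone p23, belongs to no list and fell from 26.2, 29.2 and 28.5 to 18.8, 20.98 and 18.4 (log2 change -0.50, adjusted p = 0.0465). Its call was lost whichever of the 6 libraries was left out (adjusted p 0.0532 to 0.23), on FPKM as deposited (0.0512), with limma-voom (0.084) and in the fit of the 2 groups alone (0.0821).

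The integrated stress response, the translation-control arm that follows phosphorylation of eIF2-alpha, contributed 1 call among 19 tested genes, lower in SQ-3 (0.269% of all genes). The list median was -0.37 (-0.57 with limma-voom). At an unadjusted p under 0.05, 11 genes were lower, against 8.31% of all genes. Cebpb (chr2:167688915-167690418), a bZIP transcription factor of stress and inflammation, stood at 26.98, 32.4 and 37.3 in Model and 13.96, 18.4 and 12.7 in SQ-3 (log2 change -1.06, adjusted p = 0.0305). Cebpb overlaps Tmem189. Gdf15, a stress-induced circulating factor, had the largest fitted change of the list without a call: 28.4, 11.7 and 22.9 in Model against 2.4, 5.73 and 1.19 in SQ-3 (log2 change -2.49, 95% interval -3.54 to -1.45, adjusted p = 0.0566, and 0.0465 without SQ-3 2). Both groups varied widely for Gdf15, yet no library overlapped, and Sham stood at 0.252, 0.16 and 0.212. Atf5 stood at 65.3, 49.5 and 59.6 in Model and 36.1, 41.4 and 32.5 in SQ-3 (adjusted p = 0.152). The Cebpb call was lost without Model 1, Model 2, Model 3, SQ-3 1 and SQ-3 3 (adjusted p 0.0249 to 0.151), without the filter (0.0604) and in the fit of the 2 groups alone (0.0659).

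Immediate early genes, which cells transcribe within minutes of a stimulus, had a list median of -0.71. Of 24 tested genes, 2 were called lower (0.269% of all genes) and none higher (0.0769%). At an unadjusted p under 0.05, 19 were lower, against 8.31% of all genes. Nr4a3 (chr4:48045153-48086447), an orphan nuclear receptor, stood at 4.32, 6.1 and 4.96 in Model and 1.31, 1.53 and 1.22 in SQ-3 (log2 change -1.37, SE 0.13, adjusted p = 0.00132). It remained above Sham, which stood at 0.559, 0.558 and 0.629 (SQ-3 minus Sham 0.57, adjusted p = 0.0319). Fosl2 (chr5:32135801-32157842), an AP-1 subunit, stood at 12.7, 14.7 and 16.8 in Model and 6.44, 5.86 and 5.5 in SQ-3 (log2 change -1.18, adjusted p = 0.0153), and its call was lost without Model 2, Model 3, SQ-3 1, SQ-3 2 and SQ-3 3 (0.049 to 0.0989). Better-known members had large fitted changes with a wide spread: Fos stood at 14.4, 40.5 and 10.1 in Model and 2.32, 7.06 and 2.35 in SQ-3 (log2 change -2.10, 95% interval -3.55 to -0.65, adjusted p = 0.233). Egr1 stood at 24.9, 41.4 and 23.3 and 10.5, 13.7 and 10.9 (adjusted p = 0.17), and Nr4a1 at 20.97, 51.9 and 48.99 and 10.2, 13.4 and 9.32 (adjusted p = 0.203). Atf3, an ATF factor of both stress lists, stood at 7.07, 13.5 and 9.98 and 2.91, 4.4 and 2.56 (adjusted p = 0.15). Model library 2 was the highest of its group for Fos, Egr1, Nr4a1 and Atf3. The 2 abundant members Dusp1, a MAP kinase phosphatase, and Klf2, a flow-responsive endothelial factor, overlapped between groups (adjusted p = 0.347 and 0.423).

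The calls included Tcap, of the contractile list, and Abra, a muscle gene of no list. Tcap (chr11:98383811-98384953), which encodes telethonin, the cap of titin at the Z-disc, stood at 225, 305 and 161 in Model and 872, 853 and 1178 in SQ-3, a 4.28-fold rise (95% interval of the log2 change 1.33 to 2.86, adjusted p = 0.0346). In Sham it stood at 2305, 1751 and 1665, so its SQ-3 level lay between Model and Sham. Leaving out any library ended the Tcap call (adjusted p 0.056 to 0.166), as did the unfiltered fit (0.126). Tcap was the only called gene among 24 tested contractile genes (0.0769% of all genes were called higher), whose median was 0.36. All 24 had a fitted change above 0, against 48.3% of all genes. With quantile normalization the contractile median was 0.16, with 22 above 0 and 2 below. Abra (chr15:41864076-41869720), an actin-binding protein of striated muscle, went the other way, at 20.9, 22.4 and 22.96 in Model and 9.28, 11.9 and 8.49 in SQ-3 (log2 change -1.10, adjusted p = 0.0217). The Abra call was lost without Model 1, Model 2, Model 3, SQ-3 1 and SQ-3 3 (adjusted p 0.0254 to 0.133) and without the filter (0.0501).

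2 of the matrix enzymes fell, Adamts4 and Adam19, and Fbn2, a gene of no list that is described with them after its values had been seen, fell as well. Adamts4 (chr1:171250421-171260637), a secreted protease that cleaves versican and aggrecan, stood at 4.44, 3.95 and 4.24 in Model and 0.56, 0.368 and 0.721 in SQ-3, so the groups differed several-fold, with closer values in Model than in SQ-3 (log2 change -1.75, adjusted p = 0.0112). Its annotated span overlaps that of another gene, which limits the assignment of its reads. Adam19 (chr11:46055992-46147343), a membrane-bound metalloprotease needed for heart valve and septum development, stood at 10.96, 8.82 and 12.1 in Model and 4.62, 4.84 and 4.65 in SQ-3 (log2 change -1.02, adjusted p = 0.0392). Fbn2, which encodes the microfibril protein fibrillin-2, stood at 4.02, 3.27 and 3.68 in Model and 0.861, 1.23 and 0.857 in SQ-3 (log2 change -1.23, adjusted p = 0.00691). Both Adam19 and Fbn2 stayed above Sham, with SQ-3 minus Sham changes of 0.67 and 0.69 (adjusted p = 0.0462 and 0.0279). The calls were lost without Model 1, Model 3, SQ-3 1 and SQ-3 2 (Adamts4, 0.0487 to 0.0696), any of the 6 (Adam19, 0.0611 to 0.187) and Model 3 (Fbn2, 0.0159 to 0.0504). A pseudocount of 0.1 ended the calls of Adamts4 (0.114) and Adam19 (0.062), and the unfiltered fit that of Adam19 (0.103).

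The called genes not yet described belong to no list, as do Fbn2, Abra and Ptges3. Of those that rose, Pik3ip1 (chr11:3330401-3342971), an inhibitor of PI3 kinase, went from 5.59, 4.7 and 5.7 in Model to 9.79, 11.7 and 10.3 in SQ-3 (log2 change 0.87, adjusted p = 0.0205). Gypc, a glycophorin of the membrane skeleton, went from 11.6, 10.9 and 11.4 to 17.1, 15.5 and 19.3 (log2 change 0.57, adjusted p = 0.0374). Sh2d4a (chr8:68276567-68347699), an SH2 domain adaptor, went from 3.46, 4.25 and 2.43 to 8.1, 8.26 and 6.42 (log2 change 0.99, adjusted p = 0.0456). Gypc is also present in red cells, whose summed markers ran from 694 to 1345 in Model and from 684 to 1520.0 in SQ-3, and their part in the Gypc value was not tested. The calls were lost without each of the 6 libraries in turn (Pik3ip1, adjusted p 0.0681 to 0.0971), Model 1, Model 2, Model 3, SQ-3 1 and SQ-3 3 (Gypc, 0.0373 to 0.166) and Model 1, Model 3, SQ-3 1, SQ-3 2 and SQ-3 3 (Sh2d4a, 0.0498 to 0.17). Limma-voom did not call Gypc (0.144), the fit of the 2 groups alone called neither Gypc (0.0756) nor Sh2d4a (0.0723), and the unfiltered fit did not call Sh2d4a (0.114).

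The genes of no list that fell are given one by one. Uap1 (chr1:170141938-170174957), which makes the activated sugar UDP-GlcNAc, went from 29.2, 32.3 and 31.4 in Model to 16.99, 17.2 and 14.7 in SQ-3 (log2 change -0.89, adjusted p = 0.032). Mlec, malectin, a lectin of the endoplasmic reticulum, went from 38.7, 37.2 and 33.3 to 24.9, 25.8 and 23.8 (log2 change -0.53, adjusted p = 0.0444). Txndc11, a thioredoxin-domain protein that works with EDEM proteins, went from 4.39, 4.23 and 4.12 to 2.78, 2.91 and 2.997 (log2 change -0.43, adjusted p = 0.0392) and overlaps Snn. Slc38a2 (chr15:96687392-96699730), the amino acid transporter SNAT2, went from 42.8, 35.6 and 40.1 to 21.8, 24.1 and 22.2 (log2 change -0.77, adjusted p = 0.0152). None of the 4 was called by limma-voom (0.0741, 0.124, 0.0876 and 0.0598, in the order given). The unfiltered fit ended the calls of Uap1 (0.0598) and Txndc11 (0.0935), the fit of the 2 groups alone those of Mlec (0.0795) and Txndc11 (0.0723), and quantile normalization that of Mlec (0.05). Leaving out any library ended the calls of Uap1, Mlec and Txndc11 (up to 0.166, 0.223 and 0.163), and leaving out Model 1, Model 3, SQ-3 1 and SQ-3 3 that of Slc38a2 (up to 0.0989).

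Nectin1 (chr9:43743984-43807461), an adhesion molecule, had 3.54, 4.21 and 4.72 in Model and 1.95, 1.4 and 1.97 in SQ-3 (log2 change -0.90, adjusted p = 0.00764). Unc119b, a carrier of lipid-modified proteins, had 15.7, 14.3 and 16.1 and 8.1, 8.16 and 7.99, with SQ-3 libraries almost equal (log2 change -0.85, adjusted p = 0.0135). Banp, a DNA-binding protein of CpG promoters, had 4.14, 4.5 and 3.52 and 1.47, 1.57 and 0.951 (log2 change -1.12, adjusted p = 0.0146). Shb, an SH2 adaptor, had a log2 change of -1.02 (adjusted p = 0.0317), and Sash1, a scaffold protein, of -0.70 (0.0444). The imprinted zinc finger gene Peg3 had -0.70 (0.0392), the Polycomb gene Phc2 -0.63 (0.0306) and the zinc finger gene Zfp868 -0.53 (0.0392). Phc2 was the third called gene with an E-box in its promoter window. Leaving out any library ended the calls of Shb, Sash1, Peg3, Phc2 and Zfp868 (adjusted p up to 0.127, 0.174, 0.174, 0.151 and 0.188). Those of Nectin1, Unc119b and Banp ended without Model 3 (Nectin1, 0.0507), Model 1, Model 3, SQ-3 1, SQ-3 2 and SQ-3 3 (Unc119b, up to 0.091) and Model 1, Model 2, Model 3, SQ-3 1 and SQ-3 3 (Banp, up to 0.0826). Limma-voom did not call Sash1 (0.084), Peg3 (0.0598), Phc2 (0.084) or Zfp868 (0.1). The unfiltered fit ended the calls of Shb (0.0787), Sash1 (0.0845), Peg3 (0.103) and Zfp868 (0.08), the fit of the 2 groups alone those of Nectin1 (0.0513), Sash1 (0.069), Peg3 (0.0513) and Zfp868 (0.0591), a pseudocount of 0.1 that of Peg3 (0.0552), and the stricter filter that of Zfp868 (0.0502).

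Fibrosis genes, the subject of the study, gave no collagen call. Of 19 tested collagen genes, 0 passed with limma and 0 with limma-voom. At an unadjusted p under 0.05, 9 were lower, against 8.31% of all genes. In 15 the 3 SQ-3 libraries lay below the 3 Model libraries, against 14.3% of all genes. The list median was -0.77, with members between -1.31 and -0.53. Col1a1, the main fibrillar collagen chain, stood at 1020.1, 785 and 826 in Model and 416, 287 and 362 in SQ-3, without overlap (log2 change -1.31, 95% interval -2.56 to -0.06, adjusted p = 0.334). Col3a1 stood at 1147, 1136 and 1074 in Model and 604, 563 and 519.9 in SQ-3, also without overlap (log2 change -0.99, 95% interval -2.02 to 0.03, adjusted p = 0.364). Within each of these groups the libraries were close, but Col1a1 ran from 184, 574 and 925 in LQ-40 and 30.8, 100.3 and 107 in Sham, and those libraries share the estimate of the spread in the fit. When only SQ-3 and Model were fitted, Col18a1 and Col1a2 passed (adjusted p = 0.0283 and 0.0417, against 0.15 and 0.318 in the fit of 4 groups), with log2 changes of -0.77 and -1.15. In bulk tissue, fewer fibroblasts and less of a transcript in each fibroblast cannot be told apart.

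Other matrix genes had list medians of similar size. Of 31 matrix glycoproteins and proteoglycans, 0 passed with either tool, 2 were lower at an unadjusted p under 0.05 (8.31% of all genes), and the median was -0.62. Fn1, fibronectin, stood at 167, 169 and 129 in Model and 89.6, 79.3 and 80.2 in SQ-3 (log2 change -0.88, adjusted p = 0.353), and Eln, elastin, at 195, 181 and 183 and 63.1, 147 and 77.9 (log2 change -1.04, adjusted p = 0.203). Sparc, a collagen-binding glycoprotein, stood at 1402, 1202 and 1383 and 718, 1212 and 655, with SQ-3 library 2 within the Model range (adjusted p = 0.366). Of 33 matrix enzymes and inhibitors, the 2 genes Adamts4 and Adam19 were called lower (0.269% of all genes). At an unadjusted p under 0.05, 11 were lower (8.31% of all genes), and the median was -0.56. Mmp14, a membrane-bound collagenase, stood at 32.8, 34.7 and 29.6 in Model and 15.1, 16.2 and 13.5 in SQ-3 (log2 change -1.07, adjusted p = 0.16, and 0.019 when only SQ-3 and Model were fitted). Serpinh1, the collagen chaperone HSP47, stood at 318, 285 and 293 and 145, 194 and 118 (log2 change -0.99, adjusted p = 0.166). Mmp2 had a log2 change of -0.58 (adjusted p = 0.406), and Timp1, an inhibitor of metalloproteases, of -1.11 with a 95% interval of -2.77 to 0.55.

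Markers of activated fibroblasts were not called either: 0 of 17 passed with either tool, 3 were lower at an unadjusted p under 0.05 (8.31% of all genes), and the median was -0.71 (-0.42 without SQ-3 1). Postn, periostin, the classic marker of activated heart fibroblasts, stood at 191, 161 and 199 in Model and 133, 225 and 102 in SQ-3, where library 2 exceeded every Model library (log2 change -0.33, 95% interval -1.61 to 0.94, adjusted p = 0.8). Comp, a matrix protein of scars, stood at 231, 100.4 and 228 and 77.95, 267 and 107, and Ctgf, a matricellular growth factor, at 320.4, 194 and 372 and 99.5, 377 and 89.7, both again highest in SQ-3 library 2 (adjusted p = 0.858 and 0.527). Acta2, smooth muscle actin, stood at 171, 162 and 169.8 and 93.1, 149 and 109 (log2 change -0.54, adjusted p = 0.213). For Postn, Comp and Ctgf, then, SQ-3 libraries 1 and 3 and library 2 lay on different sides of parts of the Model range. Resident fibroblast markers had a median of -0.20, with 0 of 15 called by either tool. At an unadjusted p under 0.05, 1 was higher and 1 lower (5.9% and 8.31% of all genes). Their summed levels overlapped, 2700.0 to 2948 in Model and 2191 to 3301 in SQ-3. Of 25 TGF-beta ligands, receptors and targets, 0 passed with either tool, 5 were lower at an unadjusted p under 0.05 (8.31% of all genes), and the median was -0.40. Tgfb1, the main fibrogenic ligand, stood at 14.3, 10.97 and 14.4 in Model and 9.85, 8.86 and 10.4 in SQ-3 (log2 change -0.40, adjusted p = 0.334), and Ltbp4, which stores it in the matrix, had a log2 change of -0.40 (adjusted p = 0.456). Summed contractile markers were higher in every SQ-3 than in every Model library, as given above, and their part in the matrix values was not tested.

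**Figure D4:**
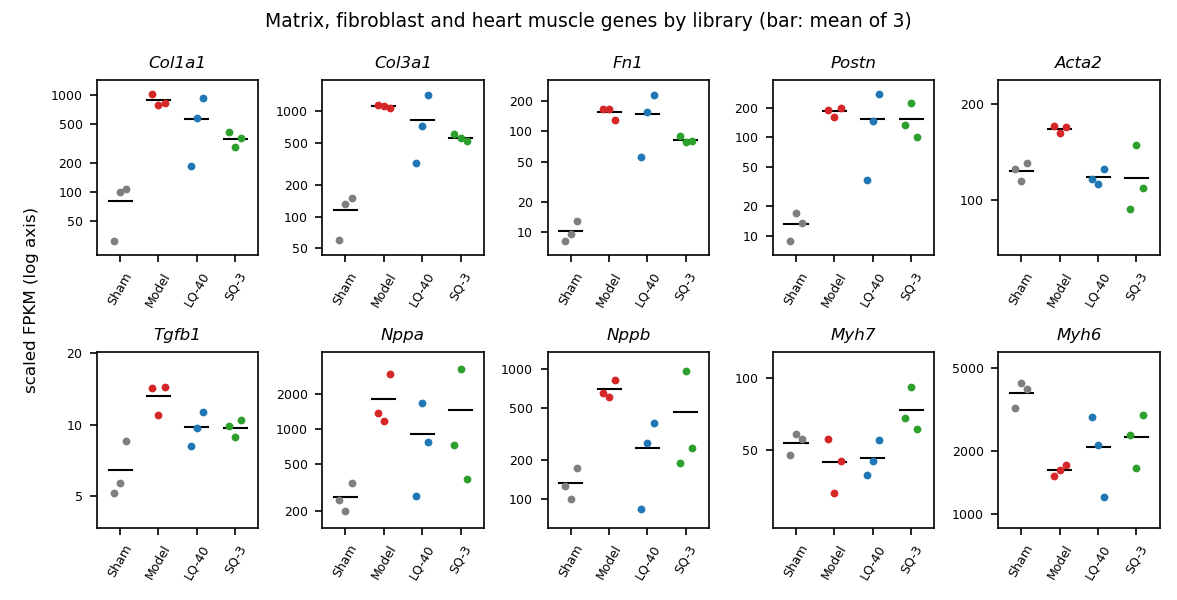
Scaled FPKM (log axis) by group and library for 10 matrix, fibroblast and heart muscle genes, each library a point and the mean of 3 a bar. SQ-3 libraries of Col1a1 (287 to 416) lie below all Model libraries (785 to 1020.1), whereas Postn, Nppa and Nppb overlap because of SQ-3 library 2.

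Against Sham, matrix genes in SQ-3 were called higher. Col1a1 in SQ-3 was above Sham by 2.32 on the log2 scale (adjusted p = 0.0375), Col3a1 by 2.39 (0.0182), Fn1 by 2.92 (0.0033) and Postn by 3.40 (0.00975). In the same fit Model exceeded Sham by 3.63, 3.38, 3.80 and 3.74 in these genes, in the same order, where 20.9% of all genes were called higher in Model and 18.0% lower. Of the 19 collagen genes, 14 were called higher in SQ-3 than in Sham, against 4.86% of all genes, with a list median of 2.08, and none lower.

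Contractile, calcium-handling and metabolic lists had medians above 0 with few calls. Calcium cycling and excitation genes had a median of 0.37, or 0.55 without SQ-3 2 (0 of 22 called by either tool, 3 higher at an unadjusted p under 0.05). Fatty acid oxidation had 0.50 (0 of 32, with 5 higher and 2 lower), nuclear genes of oxidative phosphorylation 0.46 (0 of 36, 3 higher), the TCA cycle 0.48 (0 of 22, 4 higher) and genes of the mitochondrial genome 0.35 (0 of 13, 1 higher). Over all genes, 5.9% were higher and 8.31% lower at an unadjusted p under 0.05. All members of the oxidative phosphorylation and TCA lists lay above 0, against 48.3% of all genes. Without Model 3, 35 of the 36 oxidative phosphorylation genes did. Pln, phospholamban, which restrains the calcium pump, stood at 193, 278 and 272 in Model and 417, 362 and 438 in SQ-3 (log2 change 0.72, adjusted p = 0.325). The pump gene itself, Atp2a2, overlapped, at 799.6, 968 and 894 against 1381, 807 and 1532 (adjusted p = 0.565), and so did the cardiac actin gene Actc1 (log2 change 0.22, adjusted p = 0.695). Cd36, a fatty acid transporter, stood at 222, 327 and 275 and 390.3, 329 and 442 (log2 change 0.50, adjusted p = 0.397). The ATP synthase gene Atp5a1 stood at 691, 808 and 742 and 1058, 859 and 1179 (log2 change 0.46, adjusted p = 0.413) and Mdh1, malate dehydrogenase, at 387, 511 and 445 and 613, 528 and 781 (adjusted p = 0.404). In these metabolic genes SQ-3 library 2 was the lowest of its group.

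Of 16 tested genes of cardiac stress and natriuretic peptides, 0 were called by either tool (smallest limma adjusted p = 0.0538), and the median was -0.18. At an unadjusted p under 0.05, 2 were higher (5.9% of all genes) and 4 lower (8.31%). The natriuretic peptides Nppa and Nppb were variable in SQ-3. Nppa, atrial natriuretic peptide, stood at 1364, 1168 and 2908 in Model and 729.6, 3215 and 373 in SQ-3, so that SQ-3 held both the lowest and the highest of the 6 libraries (log2 change -0.80, 95% interval -2.54 to 0.94, adjusted p = 0.633). Nppb, the B-type peptide, showed the same order, at 662, 612 and 833 and 188, 969 and 247 (log2 change -0.97, 95% interval -2.35 to 0.42, adjusted p = 0.47). Myh7, the slow myosin heavy chain that rises in stressed mouse ventricle, was not lower in SQ-3: it stood at 55.7, 33.3 and 45.02 in Model and 67.9, 91.3 and 60.98 in SQ-3, without overlap (log2 change 0.71, 95% interval 0.25 to 1.18, adjusted p = 0.212). Myh6, the adult ventricular myosin, stood at 1529, 1632 and 1712 and 2405, 1664 and 2981 (log2 change 0.49, adjusted p = 0.479). SQ-3 library 2 had the highest natriuretic peptide and the lowest Myh6 value of its group.

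Interferon genes did not pass. Of 34 interferon-response genes, 0 were called by either tool, and 2 were higher at an unadjusted p under 0.05 (5.9% of all genes). The median was 0.20, with 0.03 without Model 3 and 0.34 without Model 1. Ifit1, an antiviral sensor of RNA, stood at 4.31, 4.28 and 1.43 in Model, 5.003, 4.84 and 3.41 in SQ-3 and 45.98, 70.8 and 68.3 in Sham, so that both Model and SQ-3 were far below Sham (SQ-3 minus Sham -3.52, adjusted p = 0.000237). Among 24 genes of interferon-gamma GTPases and class I presentation, 0 were called by either tool, 11 were higher at an unadjusted p under 0.05 (5.9% of all genes), in 16 the SQ-3 libraries lay above the Model libraries (12.1% of all genes), and the median was 0.48. Iigp1, an immunity-related GTPase, stood at 12.8, 10.6 and 4.45 in Model and 20.1, 21.1 and 28.2 in SQ-3 (log2 change 1.32, adjusted p = 0.15), beside 325, 173 and 228 in Sham (SQ-3 minus Sham -3.30, adjusted p = 0.000352). B2m, the light chain of class I molecules, stood at 556, 403 and 339 in Model and 568, 705 and 652 in SQ-3 (adjusted p = 0.41). Macrophage markers overlapped, with sums of 1091 to 1540.0 in Model and 904 to 1397 in SQ-3. Of the 28 genes, 0 were called by either tool, 3 were lower at an unadjusted p under 0.05 (8.31% of all genes), and the median was -0.17. C1qa, a complement gene of macrophages, had a log2 change of -0.35 (adjusted p = 0.514). T, B and NK lymphocyte sums ran from 28.5 to 131 in Model and from 30.2 to 412 in SQ-3, and endothelial sums from 688 to 813 and 737 to 811.

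**Figure D5:**
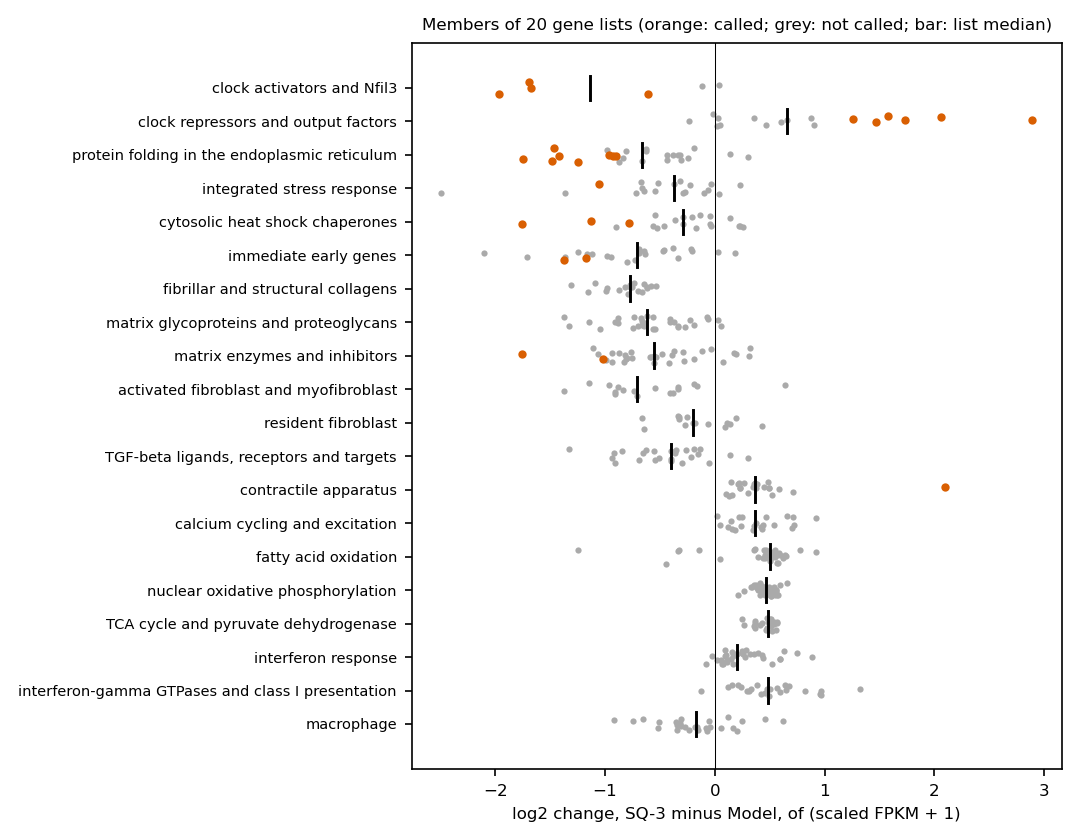
Log2 change of SQ-3 against Model (x axis, of scaled FPKM + 1) for each tested member of 20 gene lists (rows), with called genes in orange, others in grey and the list median as a bar. Calls lie in the 2 clock lists, the folding, heat shock, early gene and stress lists, the matrix enzymes and Tcap, and collagens lie to the left of 0 with no orange point.

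SQ-3 and LQ-40 were also compared directly, as groups, because the labels give no dose or time for either. 0 of 13000 genes were called with limma (0.0%) or limma-voom, the smallest adjusted p was 0.9995, and 394 genes had an unadjusted p under 0.05 (3.03%). For the 45 genes called between SQ-3 and Model, the SQ-3 minus LQ-40 log2 difference ran from -0.43 (Cebpb) to 0.38 (Abra), with 95% intervals that reached 0.16 to 0.77 to either side of the estimate. Dbp differed by 0.03 (-0.44 to 0.50), Hspa5 by 0.03 (-0.25 to 0.31), Hyou1 by -0.07 (-0.42 to 0.27) and Adamts4 by 0.09 (-0.44 to 0.61). The smallest unadjusted p among the 45 was that of Per3, at 5.97, 7.12 and 6.09 in LQ-40 and 4.74, 4.79 and 4.12 in SQ-3, where the LQ-40 libraries lay above all SQ-3 libraries (difference -0.41, 95% interval -0.68 to -0.14, unadjusted p = 0.0065, adjusted p = 1). Arntl leaned the other way, at 0.287, 0.368 and 0.43 in LQ-40 against 0.833, 0.584 and 0.807 in SQ-3 (difference 0.35, unadjusted p = 0.0477, adjusted p = 1). Outside the 45, the list of interferon-gamma GTPases and class I presentation had a median SQ-3 minus LQ-40 difference of -0.51, against 0.00 over all genes, with all 24 members below 0 (from -1.56 to -0.11) and 10 of 24 at an unadjusted p under 0.05, none called. Iigp1 stood at 44.5, 55.9 and 44.1 in LQ-40 and 20.1, 21.1 and 28.2 in SQ-3, with every LQ-40 library above every SQ-3 library (difference -1.04, 95% interval -1.75 to -0.32, unadjusted p = 0.00901, adjusted p = 1). This list was singled out after its values had been seen, and its direction was not particular to it. Median SQ-3 minus LQ-40 differences were -0.52 for MHC class II (members from -1.095 to -0.19), -1.03 for neutrophil markers and -0.61 for erythroid markers. They were -0.44 for cytokines and chemokines and -0.42 for complement. Some other lists lay above 0, such as contractile genes (0.22) and nuclear oxidative phosphorylation (0.23). A p that misses the threshold does not show that the compounds act alike, and the intervals give the size of difference the libraries allow. Against Model, LQ-40 gave 24 genes higher (0.185%) and 63 lower (0.485%) in the same fit, in a comparison that shares the Model libraries. Dbp and Hspa5 had LQ-40 minus Model changes of 2.86 and -1.28 beside the SQ-3 minus Model changes of 2.89 and -1.25. LQ-40 libraries were more spread out: for Col1a1 they ran at 184, 574 and 925 against 416, 287 and 362 in SQ-3, and the median SD of a gene over 3 libraries was 0.198 in LQ-40, 0.163 in SQ-3 and 0.122 in Model on the log2 scale.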

How the data were processed

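Mouse heart RNA was sequenced as poly(A) libraries. Per the submitters' processing notes, fastp, HISAT2 2.0.5 and featureCounts 1.5.0-p3 were used with mm10 for mouse; whether counting used strand is not given in the sources used here. The authors deposited FPKM per gene for 12 mouse libraries (54532 genes). Low values were whole multiples of the value of 1 read, which gave back reads for 100% of values within a tolerance of 0.02 (13085370 to 16698987 reads per library).

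FPKM was scaled by a median-of-ratios factor over 10422 genes. Genes of at least 1 FPKM in at least 3 of 12 libraries (13000) were tested on log2(scaled FPKM + 1). The test was limma 3.58.1 (R 4.3.3, trend, 10.9 degrees of freedom) with all 4 groups in 1 fit. It used Benjamini-Hochberg adjustment over all tested genes and a two-sided threshold of 0.05. The procedure was tested on simulated reads with the same spread setting for all genes and groups. That test does not cover the unequal spread of the real groups. Lists were described by counts and medians without a test. The comparison, lists and genes were chosen with earlier results of these data known. Genes named are the called genes with the largest changes, up to 4 called and 2 uncalled members of each list described, and 10 fixed fibrosis and heart genes. The following 15 called genes, named for completeness, fall outside that rule: Abra, Shb, Dnajc3, Edem1, Nectin1, Uap1, Unc119b, Slc38a2, Sash1, Peg3, Phc2, Zfp868, Mlec, Ptges3 and Txndc11. Also named after their values were seen were Per1, Per2, Cry2, Pdia4, Hsp90b1, Egr1, Fos, Nr4a1, Atf3, Gdf15, Timp1, Mmp14, Eln, Col18a1, Col1a2, Iigp1, Ifit1, Hsp90aa1 and Hspa8, and the promoters printed. The labels do not say whether replicate numbers pair libraries, and the main fit treated the libraries as unpaired. Alternatives were limma-voom on recovered reads (with read totals only and no scale factors), FPKM as deposited, quantile normalization, a stricter filter (a mean of 5 FPKM or more), none, 0.1 as pseudocount, only the 2 groups compared, a replicate block and leaving out each library.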

Additional observations from a re-analysis of the deposited data

How the results depend on the processing

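With each of the 6 libraries left out in turn, SQ-3 minus Model gave 4 to 7 genes higher (10 with all) and 8 to 20 lower (35 with all), and between 12 (without Model 3) and 23 (without Model 2) of the 45 called genes were called again; such fits hold fewer samples. Of the 45, 44 were also called on FPKM as deposited and with quantile normalization, 42 with a pseudocount of 0.1, 32 with limma-voom, 32 without the filter, 31 with a mean of at least 5 FPKM, 30 with only the 2 groups compared and 26 with a replicate block. The filter of 5 FPKM removed some of the 45, such as Arntl and Nr4a3. Calls lost with the block included Dnajc3 (limma adjusted p = 0.0526), Banp (0.0528), Abra (0.0592), Shb (0.0644) and Edem1 (0.078). The losses given gene by gene above do not cover the block. No median of the 18 lists compared changed sign. Of the list medians under these alternatives, 17 moved by more than the SD between the SQ-3 libraries and 235 by less. Beside those given with their lists, a median moved by over 1.5 times for the interferon response (0.31 with a pseudocount of 0.1 and 0.31 without SQ-3 3, against 0.20) and for the clock activators and Nfil3 (-1.97 against -1.14), where the filter of 5 FPKM left 1 gene. Same-numbered Model and SQ-3 libraries deviated with correlations of 0.03, -0.15 and -0.16. With 3 libraries a group, these values cannot settle whether the numbers pair libraries, and the labels do not say. A replicate block gave 7 genes higher and 22 lower. Per1 turned from 0.02 to -0.038 with limma-voom, where the median over all genes was -0.07. Its change ranged from -0.22 (without Model 1 or SQ-3 2) to 0.20 with a library left out. SQ-3 minus LQ-40 gave 1 gene higher and 1 lower without the filter, and 0 to 1 higher with a library left out. Model minus Sham gave 1546 genes higher with a mean of at least 5 FPKM (2718 in the fit reported), 1389 lower with limma-voom (2335), and 1406 to 2077 lower with a library left out. SQ-3 minus Sham gave 129 higher without the filter, 411 with quantile normalization and 109 to 292 with a library left out (632), and 154 lower with limma-voom, 133 without the filter, 386 with only the 2 groups and 108 to 152 with a library left out (236). The causes were not tested. Groups of 3 libraries and genes near 1 read limit the precision throughout.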
